A study of Oryctolagus cuniculus with 24 samples.

Results

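The monocyte and macrophage identity genes described here are CD68, MPEG1, ITGAM, CYBB, AIF1, VCAN, TYROBP, SPI1, MNDA and FPR1. They were chosen by name as genes that mark the mononuclear phagocytes of blood, with earlier results of these data known. A probe belonged to the set when the name given to it was one of these 10 symbols. All 10 were found, among 28873 genes measured on a custom one-colour Agilent array of the rabbit, of which 9503 carried a gene symbol. Together they were read by 19 probes of 60 bases each. Peripheral blood mononuclear cells (PBMCs, the lymphocytes and monocytes left after a density gradient has removed red cells and most granulocytes) came from 4 rabbits, adult females of the New Zealand White breed, called 1, 2, 4 and 5. The cells of each rabbit were cultured in 6 ways, which gave 24 arrays, 1 for each rabbit in each of 6 groups. Mock cultures received a buffer with no agent, LPS cultures received lipopolysaccharide (a component of the bacterial outer membrane) at 1 μg/mL, and PMA-Ionomycin cultures received phorbol myristate acetate at 10 ng/mL with ionomycin at 1 μg/mL, a pair of drugs that activates protein kinase C and raises cell calcium. Cells were harvested after 4 hours (T4) or 24 hours (T24). All groups shared the same medium with serum, and the cells were not sorted, so each array holds the RNA of all cell types in the culture.

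Monocytes are phagocytes of the blood that arise under the control of PU.1, the transcription factor encoded by SPI1, and that can turn into macrophages once they adhere or enter a tissue. They sense microbes and tissue damage through surface receptors such as the formyl peptide receptor FPR1, pass signals from receptors that lack a signalling tail of their own through the adaptor DAP12 (TYROBP), adhere through the integrin chain CD11b (ITGAM), and kill what they engulf with the oxidase whose catalytic chain is gp91phox (CYBB) and with the pore-forming protein perforin-2 (MPEG1). CD68 is a glycoprotein of their lysosomes, AIF1 (also called IBA1) is a calcium-binding protein of the actin cytoskeleton, MNDA is a nuclear protein of the PYHIN family and VCAN is versican, a large proteoglycan of the extracellular matrix that monocytes secrete. In bulk cultures, fewer cells of a type and less RNA per cell cannot be told apart.

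The probes that carried the results are shown because each value below is the brightness of these sequences after hybridisation. FPR1 had the widest span of values and was read by 1 probe with no position in the file. TYROBP was read by 1 probe, spotted 3 times on each array, that ends at a stop codon (in capitals) with an open frame before it. CYBB was read by 1 probe on chromosome X, bases 23394325 to 23394384 of the oryCun2 build. MPEG1 was read by 5 probes, each shifted by 1 base from the next, between bases 192106928 and 192106991 on the minus strand of chromosome 1, and 2 of them are given with the 56 bases that all 5 share in capitals. They are therefore near-copies of a single measurement. VCAN was read by 5 such overlapping probes on chromosome 11, bases 3812096 to 3812161, of which the first is given with their 54 shared bases in capitals, and by a separate probe whose 60 bases are spread over 19600 bases of the genome, from 3726492 to 3746091, and so lie on more than 1 exon. All are written 5′ to 3′.
FPR1: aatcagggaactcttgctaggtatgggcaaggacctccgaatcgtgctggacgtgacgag
TYROBP: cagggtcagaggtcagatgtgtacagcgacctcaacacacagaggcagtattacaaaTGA
CYBB: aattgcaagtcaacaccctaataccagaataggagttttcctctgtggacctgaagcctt
MPEG1, the probe of lowest position: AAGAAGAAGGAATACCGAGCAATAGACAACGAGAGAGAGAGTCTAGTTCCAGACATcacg
MPEG1, the probe of highest position: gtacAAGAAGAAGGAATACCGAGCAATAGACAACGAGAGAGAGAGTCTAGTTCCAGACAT
VCAN, overlapping probe: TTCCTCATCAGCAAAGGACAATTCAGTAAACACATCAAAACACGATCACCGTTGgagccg
VCAN, probe over more than 1 exon: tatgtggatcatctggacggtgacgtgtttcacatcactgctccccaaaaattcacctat

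A level is the log2 of a gene's median spot signal minus the median of its array, so that 0 is the middle of all spots of that array and 1 unit is a doubling. Levels can be compared between arrays for 1 gene, and not between genes. A change is the difference of 2 group means on this scale (log2 FC), tested with limma over all 28873 genes with Benjamini-Hochberg adjustment, and a gene is said to have risen or fallen when its adjusted p was under 0.05. Each mean is over 4 rabbits. The share of spots well above background lay between 51.4% and 62.3%, lowest on the LPS T4 array of rabbit 4, followed by the PMA-Ionomycin T4 array of rabbit 2 at 52.6%. The members other than MPEG1 and VCAN were well above background on every array. CD14 and CSF1R, defining surface receptors of monocytes, had mean levels of 7.38 and 1.16 in mock cultures at T4.

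**Figure D1:**
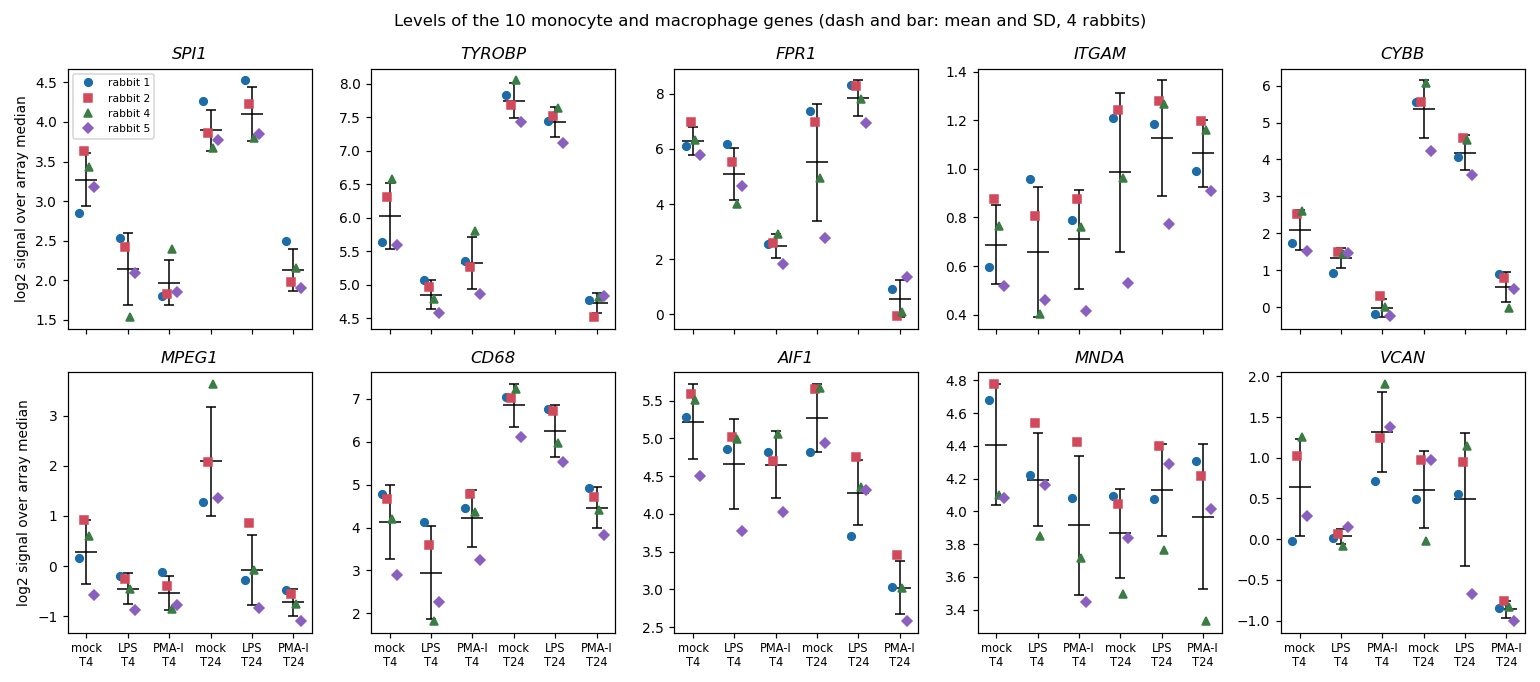
Level of each of the 10 genes (vertical axes, log2 signal over the array median, a separate scale for each gene) in the 6 groups (horizontal axes; PMA-I stands for PMA-Ionomycin); each marker is a rabbit, and dashes with bars are means and SD of 4 rabbits. TYROBP and CYBB are highest at T24 in mock and LPS cultures and low in PMA-Ionomycin cultures, while ITGAM and MNDA stay within a narrow range in all groups.

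The clearest change was that of PMA-Ionomycin at T24, when 8 of the 10 genes were lower than in mock cultures of the same rabbits and none was higher. Over all genes measured, 11.5% fell in this comparison. As the 10 genes were chosen with earlier results of these data known, this share is a description and not a test. The median log2 FC of the 10 genes was -2.31, against 0.03 over all genes. FPR1, CYBB, TYROBP, MPEG1, CD68, AIF1, SPI1 and VCAN fell, each in 4 of 4 rabbits. The fall was 3.38-fold for SPI1 and 31.0-fold for FPR1, with the others between them except VCAN, which was too dim with PMA-Ionomycin for more than a lower bound of 2.75-fold. ITGAM and MNDA did not pass the test, at log2 FC of 0.08 (95% interval -0.26 to 0.41) and 0.10 (-0.38 to 0.59). The 8 calls remained under each of the 16 alternatives tried, and 4 of them, each another scaling of the arrays, put ITGAM and MNDA below 0 without a call.

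At T4 the same drugs had already lowered 4 of the 10 genes, FPR1, CYBB, SPI1 and TYROBP, where 9.35% of all genes fell. The median log2 FC of the members was -0.64, against 0.05 over all genes. LPS lowered SPI1 and TYROBP at T4 (2 of 10, against 0.97% of all genes) and MPEG1 at T24 (1 of 10, against 0.582%). All 10 members had a negative log2 FC with LPS at T4, where 39.7% of all genes had one, and the members' median was -0.75. With dim probes left out, the median over all genes was -0.0531, against 0.0579 with all probes. With the background-subtracted signal, ITGAM (0.0845) and MNDA (0.0231) were above 0. Mock, LPS and PMA-Ionomycin comparisons at 1 time share the same mock arrays. In mock cultures, 4 of 10 members were higher at T24 than at T4 (CYBB, CD68, MPEG1 and TYROBP), where 7.41% of all genes rose. Of the 10 members, 5 had their highest mean in mock cultures at T24, and 5 had their lowest in PMA-Ionomycin cultures at T24.

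**Figure D2:**
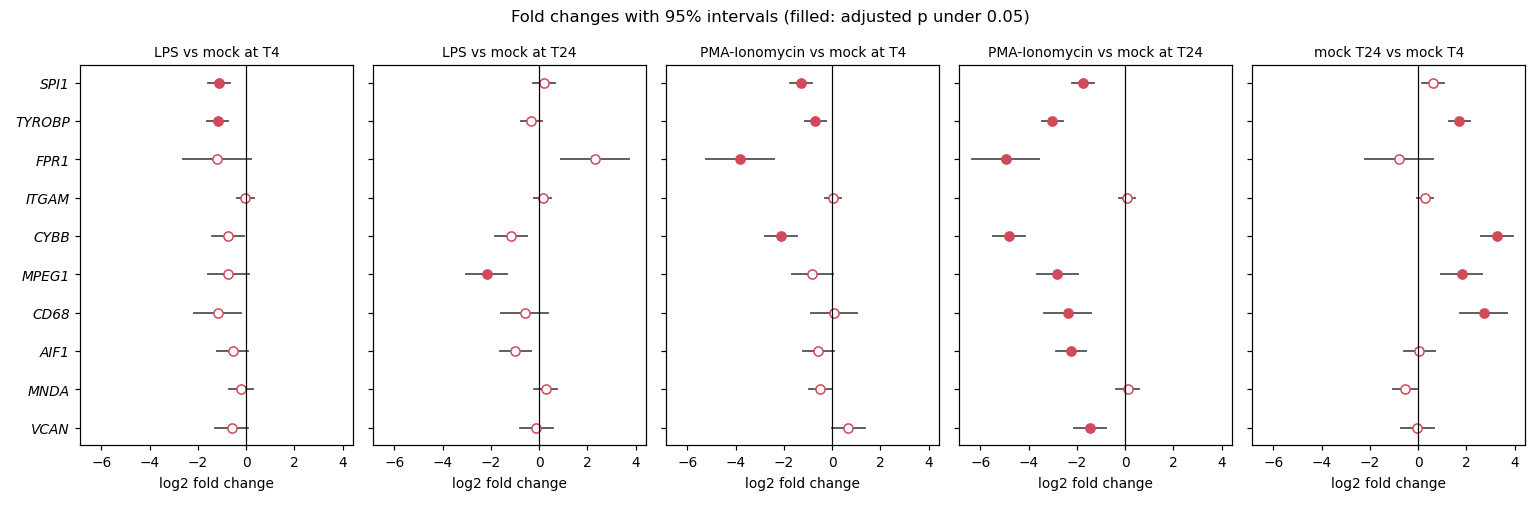
Log2 FC (horizontal axes) of the 10 genes (rows) in 5 comparisons (panels); circles are limma estimates, filled where the adjusted p was under 0.05, and lines are 95% intervals. The PMA-Ionomycin T24 panel has 8 filled circles left of 0, the mock time panel has 4 right of 0, and FPR1 with LPS at T24 is an open circle at 2.33 with a wide interval.

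SPI1, which encodes the transcription factor PU.1, was lower with both stimulations at T4. In mock cultures at T4 its level was 2.84, 3.63, 3.43 and 3.18 in rabbits 1, 2, 4 and 5. With LPS it was 2.53, 2.42, 1.53 and 2.09, and with PMA-Ionomycin 1.80, 1.82, 2.40 and 1.86. Neither stimulated group overlapped the mock group. SPI1 fell with LPS by 1.13 on the log2 scale (SE 0.22, adjusted p = 0.0253 by limma) and with PMA-Ionomycin by 1.30 (SE 0.22, adjusted p = 8.74e-05).

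At T24 the LPS cultures no longer showed it. The level of SPI1 was 4.27, 3.86, 3.68 and 3.77 in mock cultures, 4.52, 4.23, 3.80 and 3.84 with LPS, and 2.50, 1.98, 2.16 and 1.90 with PMA-Ionomycin. Mock and LPS overlapped, with LPS higher in each rabbit by 0.08 to 0.37, and PMA-Ionomycin lay below both. The change with LPS at T24 was 0.21 (adjusted p = 0.879), and the difference between the LPS effects at T24 and T4 was 1.33 (SE 0.31, adjusted p = 0.0289). In the fit described above, without a block, SPI1 was the only member past the threshold for this difference. Of all genes, 1.71% passed in this direction. FPR1 had a larger one, 3.54 (adjusted p = 0.0557). With rabbit as a block FPR1 (adjusted p = 0.0166 by limma) and TYROBP (0.0336) passed too. FPR1 also passed with quantile normalization (0.0482), without dim probes (0.0392) and without rabbit 1 (0.0491). The effect of PMA-Ionomycin on SPI1 at T24 was -1.76 (SE 0.22, adjusted p = 7.64e-07), a 3.38-fold fall, and it differed from that at T4 by -0.46 (adjusted p = 0.387). Without the LPS T4 array of rabbit 4, an alternative chosen after seeing the data, the LPS change of SPI1 at T4 was -0.92 with an adjusted p of 0.121 and the LPS time difference 1.13 with an adjusted p of 0.066. Both calls were also lost without rabbit 2 (adjusted p = 0.198 and 0.251), rabbit 4 (0.389 and 0.171) or rabbit 5 (0.0752 and 0.104).

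Other transcription factors of the myeloid lineage were measured for 10 of 14 genes listed. With PMA-Ionomycin at T24, 7 of them fell and 1 rose, where 11.5% of all genes fell and 22.2% rose. The median log2 FC of the 10 was -1.25. CEBPA, a driver of the myeloid fate, fell most, by 1.91 (adjusted p = 5.26e-09), and IRF4, a factor of activated lymphocytes, rose by 0.57 (adjusted p = 0.048). At T4 PMA-Ionomycin lowered 2 and raised 3 of the 10, where 9.35% of all genes fell and 13.5% rose. IRF8, a partner of PU.1, was among those that rose, by 1.48 (adjusted p = 0.000483), while SPI1 fell. With LPS at T24, CEBPE rose by 1.48 (adjusted p = 5.78e-06) and CEBPA fell by 0.82 (adjusted p = 0.016).

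TYROBP, the adaptor DAP12, rose over time in culture and fell with PMA-Ionomycin. In mock cultures its level was 5.64, 6.30, 6.58 and 5.60 at T4 and 7.83, 7.68, 8.05 and 7.42 at T24, with no overlap between times. The rise was 1.72 (SE 0.21, adjusted p = 3.32e-06 by limma), or 3.28-fold. At T24 the levels were 7.44, 7.51, 7.64 and 7.11 with LPS and 4.77, 4.51, 4.81 and 4.83 with PMA-Ionomycin. The PMA-Ionomycin cultures at T24 thus lay below all mock cultures of either time, and the 4 rabbits were within 0.32 of each other. The log2 FC was -3.01 (SE 0.21, adjusted p = 7.41e-11), an 8.07-fold fall.

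At T4, TYROBP was 5.08, 4.97, 4.79 and 4.58 with LPS, below all mock cultures, and 5.36, 5.27, 5.80 and 4.86 with PMA-Ionomycin, which overlapped them. Both falls passed the test, by 1.18 with LPS (SE 0.21, adjusted p = 0.0208) and by 0.71 with PMA-Ionomycin (SE 0.21, adjusted p = 0.0148). The effect of PMA-Ionomycin was 2.30 lower at T24 than at T4 (log2 difference -2.30, SE 0.30, adjusted p = 3.07e-06). Without the LPS T4 array of rabbit 4 the LPS change at T4 was -1.15 with an adjusted p of 0.095, and it also lost the call without rabbit 2 (0.198) or rabbit 4 (0.326). Without rabbit 2 the PMA-Ionomycin change at T4 was -0.60 with an adjusted p of 0.155, and fitted on the arrays compared alone its adjusted p was 0.087. TYROBP was 0.47 higher with PMA-Ionomycin than with LPS at T4 (adjusted p = 0.111, and 0.0345 with rabbit as a block).

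Of 14 genes listed for signalling through DAP12 and the related Fc receptor gamma chain, 7 were measured. PMA-Ionomycin lowered 4 of them at T24, where 11.5% of all genes fell, with SYK, the kinase recruited by both adaptors, at -2.39 (adjusted p = 8.90e-09). At T4 PMA-Ionomycin lowered 3 and raised 1, LYN, a Src family kinase, at 1.14 (adjusted p = 0.0401), where 9.35% of all genes fell and 13.5% rose. TREML1 had the lowest value at T4, -3.25 (adjusted p = 9.16e-06), and also stands in the list of platelet markers described below. SYK was already lower at T4, by 2.29 (adjusted p = 5.63e-08). LPS changed none of the 7 past the threshold by limma (4 at T4 and 1 at T24 had an unadjusted p under 0.05), and its effects at T24 ran from -0.63 for CLEC5A to 1.05 for LYN.

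FPR1, the receptor for formylated bacterial peptides, had the widest range of the 10 genes. At T4 its level was 6.10, 6.98, 6.34 and 5.79 in mock cultures and 2.56, 2.60, 2.91 and 1.84 with PMA-Ionomycin, with no overlap. The fall was 3.83 (SE 0.68, adjusted p = 0.00014 by limma), or 14.2-fold. At T24 it was 0.90, -0.07, 0.06 and 1.35 with PMA-Ionomycin and 8.32, 8.29, 7.83 and 6.93 with LPS. In the scanner's brightness units this span ran from 79 to 217 with PMA-Ionomycin and from 12127 to 31606 with LPS. The PMA-Ionomycin values are low signals on this array, from which background was not subtracted.

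Mock cultures at T24 differed between rabbits in FPR1 more than in any other member and group. The level was 7.38 and 6.99 in rabbits 1 and 2, 4.94 in rabbit 4 and 2.76 in rabbit 5, an SD of 2.13 against 0.51 in mock cultures at T4. Rabbit 5 was 3.03 below its own mock level at T4 and rabbit 1 was 1.27 above its own. LPS cultures at T24 were close together in comparison, with an SD of 0.65, and lay above the mock culture in 4 of 4 rabbits, by 0.94, 1.30, 2.89 and 4.17 in rabbits 1, 2, 4 and 5. The mean difference of 2.33 (SE 0.68) did not pass the test (adjusted p = 0.107), and passed with rabbit as a block (adjusted p = 0.0308). PMA-Ionomycin minus mock was -6.48, -7.06, -4.88 and -1.40 in the same order, a log2 FC of -4.96 (SE 0.68, adjusted p = 2.49e-06) or 31.0-fold. Against LPS at T24, where 12.5% of all genes were lower with PMA-Ionomycin and 7 of the 10 members were, FPR1 was lower by 7.28 on the log2 scale (SE 0.68, adjusted p = 6.37e-09), or 156-fold. LPS at T4 gave -1.21 (SE 0.68, adjusted p = 0.451), with rabbit 1 at 0.08 and rabbit 4 at -2.33.

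**Figure D3:**
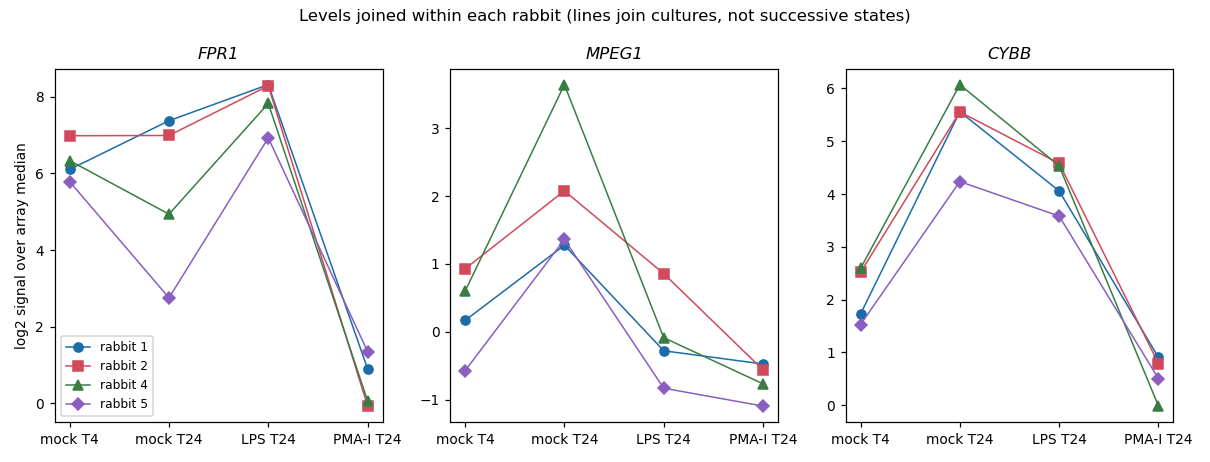
Levels (vertical axes, log2 signal over the array median) of FPR1, MPEG1 and CYBB in 4 groups, with the cultures of each rabbit joined by a line. FPR1 in mock cultures at T24 spreads from 2.76 to 7.38 while the LPS cultures lie between 6.93 and 8.32, and MPEG1 in rabbit 4 has the highest mock value at T24, 3.64.

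Among other chemoattractant receptors, 8 of 12 listed were measured, and PMA-Ionomycin lowered 4 of them at T24, where 11.5% of all genes fell. FPR2, the closest relative of FPR1, had the lowest value, at -3.28 (adjusted p = 0.00248), and its change with LPS at T24 was 1.91 (adjusted p = 0.369). PTAFR, the receptor for platelet-activating factor, had the lowest value with PMA-Ionomycin at T4, -1.58 (adjusted p = 0.00145). CCR1, a chemokine receptor, rose in mock cultures from T4 to T24 by 2.19 (adjusted p = 5.51e-06), the only 1 of the 8 to do so. Over all genes, 7.41% rose.

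ITGAM, the alpha chain CD11b, did not pass the test in any comparison. All 24 levels lay between 0.40 and 1.28, and the group means ran from 0.66 with LPS at T4 to 1.13 with LPS at T24. Groups next to each other in the order of their means overlapped. The change with PMA-Ionomycin at T24 was -0.22, -0.05, 0.19 and 0.38 in rabbits 1, 2, 4 and 5. The brightness of its probe was 78 to 225 units on all arrays, a low signal on this array, from which background was not subtracted.

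ITGB2 encodes the beta chain with which CD11b pairs on the cell surface. It fell with LPS at T4 by 1.40 (adjusted p = 0.0208) and with PMA-Ionomycin at T24 by 1.52 (adjusted p = 3.72e-05). Of 7 genes listed for the beta-2 integrins, 4 were measured. All 4 fell with PMA-Ionomycin at T24, with a median log2 FC of -1.19, where 11.5% of all genes fell. ITGAX, the alpha chain CD11c, rose in mock cultures over time by 2.52 (adjusted p = 4.52e-06). ITGAM and ITGB2 are read by different probes, and the difference between them was not tested.

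CYBB, the catalytic chain of the phagocyte NADPH oxidase, rose most of the 10 members over time in mock cultures and was strongly lower with PMA-Ionomycin at both times. Its mock level was 1.73, 2.52, 2.59 and 1.53 at T4 and 5.56, 5.56, 6.07 and 4.24 at T24, a rise of 3.27 (SE 0.32, adjusted p = 1.61e-07 by limma) or 9.62-fold. With PMA-Ionomycin it was -0.18, 0.31, 0.00 and -0.25 at T4 and 0.91, 0.79, -0.02 and 0.50 at T24. All 8 PMA-Ionomycin cultures were thus below all 8 mock cultures. The fall was 2.12 at T4 (SE 0.32, adjusted p = 1.87e-05) and 4.81 at T24 (SE 0.32, adjusted p = 3.35e-11), or 28.1-fold, and the effects differed by -2.69 (SE 0.45, adjusted p = 7.98e-05). With the background-subtracted signal the T4 difference was -3.19. The brightness of CYBB with PMA-Ionomycin was 65 to 177 units, a low signal from which background was not subtracted.

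With LPS, CYBB was 0.94, 1.48, 1.43 and 1.46 at T4 and 4.06, 4.58, 4.53 and 3.58 at T24. Each LPS culture was below the mock culture of its rabbit, by 0.07 to 1.16 at T4 and by 0.65 to 1.54 at T24. Neither difference passed the test, at -0.76 (adjusted p = 0.26) and -1.17 (adjusted p = 0.0751). The T24 difference passed with rabbit as a block (adjusted p = 0.0155) and without rabbit 5 (adjusted p = 0.0111).

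Of 8 genes listed for the oxidase and its partners, 6 were measured. PMA-Ionomycin lowered 5 of the 6 at T24, with a median of -0.997, and 3 at T4. Over all genes, 11.5% fell at T24 and 9.35% at T4. RAC2, the small GTPase of the complex, had the lowest value at T4, -2.27 (adjusted p = 8.53e-07). HVCN1, the proton channel that balances the oxidase's charge, had the highest at T24, 0.35 (adjusted p = 0.699). Over time in mock cultures 3 of the 6 rose, where 7.41% of all genes did, RAC2 among the 3 by 0.89 (adjusted p = 0.0282).

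MPEG1, which encodes the pore-forming protein perforin-2, was the only member that fell with LPS at T24 in the fit without a block. With rabbit as a block, AIF1 (adjusted p = 0.00605 by limma) and CYBB (0.0155) fell as well. Both also fell without rabbit 5 (adjusted p = 0.0202 and 0.0111). The level of MPEG1 is given next. It was 0.17, 0.93, 0.60 and -0.57 in mock cultures at T4 and 1.28, 2.08, 3.64 and 1.36 at T24. The rise was 1.81 (SE 0.41, adjusted p = 0.00327 by limma, and 0.0631 fitted on the arrays compared alone). At T24 it was -0.28, 0.86, -0.09 and -0.83 with LPS and -0.47, -0.56, -0.77 and -1.10 with PMA-Ionomycin. Both stimulated groups lay below all mock cultures at T24, and they overlapped each other.

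The log2 FC of MPEG1 at T24 was -2.17 with LPS (SE 0.41, adjusted p = 0.0049), or 4.51-fold lower, and -2.81 with PMA-Ionomycin (SE 0.41, adjusted p = 5.57e-06). Rabbit 4, which had the highest mock level, had the largest differences, -3.73 and -4.41. Without rabbit 4 the LPS difference was -1.66 with an adjusted p of 0.143, and fitted on the arrays compared alone its adjusted p was 0.203, while the PMA-Ionomycin difference stayed past the threshold. PMA-Ionomycin and LPS at T24 differed by -0.64 (adjusted p = 0.268), and by -1.97 with the background-subtracted signal (adjusted p = 0.0446). At T4 neither stimulation passed the test, at -0.73 (adjusted p = 0.446) with LPS and -0.82 (adjusted p = 0.182) with PMA-Ionomycin, the latter -2.70 with the background-subtracted signal (adjusted p = 0.01). MPEG1 was dim: no probe of it was well above background on 2 of the 4 LPS arrays at T4, on 3 of the 4 PMA-Ionomycin arrays at T4 and on 1 of the 4 PMA-Ionomycin arrays at T24. With the background-subtracted signal the PMA-Ionomycin difference at T24 was -5.16. All 5 probes fell with LPS at T24, by 2.05 to 2.31, and with PMA-Ionomycin, by 2.75 to 2.89.

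Of 6 related pore-forming and PYHIN genes listed, 2 were measured. PRF1, the perforin of killer lymphocytes, rose by 0.96 with PMA-Ionomycin at T24 (adjusted p = 0.00441) and fell by 0.76 at T4 (adjusted p = 0.0328). C9, a complement component, did not pass the test in either comparison, at -0.044 at T4 (adjusted p = 0.89) and 0.14 at T24 (adjusted p = 0.412).

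CD68, the lysosomal glycoprotein most used to stain macrophages, rose over time in mock cultures, and its mean in PMA-Ionomycin cultures was 4.21 at T4 and 4.47 at T24. It was 4.78, 4.66, 4.19 and 2.89 in mock cultures at T4 and 7.04, 7.02, 7.22 and 6.10 at T24, a rise of 2.72 (SE 0.47, adjusted p = 0.000243 by limma) or 6.57-fold. PMA-Ionomycin cultures had 4.46, 4.79, 4.36 and 3.24 at T4, overlapping mock, and 4.92, 4.71, 4.42 and 3.82 at T24, below all mock cultures of that time. The log2 FC was 0.08 at T4 (adjusted p = 0.959) and -2.38 at T24 (SE 0.47, adjusted p = 0.000251), and these differed by -2.46 (SE 0.66, adjusted p = 0.00793).

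LPS cultures had a CD68 level of 4.13, 3.59, 1.82 and 2.26 at T4 and 6.77, 6.73, 5.98 and 5.54 at T24. They were below the mock culture of the same rabbit in 4 of 4 rabbits at both times, without passing the test, at -1.18 (adjusted p = 0.234) and -0.60 (adjusted p = 0.764). The T4 difference passed with rabbit as a block (adjusted p = 0.0201). CD68 was higher with PMA-Ionomycin than with LPS at T4 by 1.26 (SE 0.47, adjusted p = 0.0497), just inside the threshold. This call was kept in 4 of the 16 alternatives, and the difference was 0.84 (adjusted p = 0.41) without rabbit 4.

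Most genes of the lysosome membrane and the cathepsins changed in the direction of CD68. Of 16 listed, 13 were measured. In mock cultures 12 of the 13 were higher at T24 than at T4, where 7.41% of all genes rose. The median rise was 1.73, led by CTSB (cathepsin B, a cysteine protease) at 4.22 (adjusted p = 2.95e-08). With PMA-Ionomycin at T24, 12 of the 13 were lower than in mock, with a median of -2.05, where 11.5% of all genes fell. LIPA, the lysosomal acid lipase, had the lowest value, -4.12 (adjusted p = 9.63e-13), and CTSC, cathepsin C, the highest, 0.28 (adjusted p = 0.571). At T4 3 fell and 3 rose, where 9.35% of all genes fell and 13.5% rose. NPC1, a cholesterol transporter of the lysosome, rose by 2.26 (adjusted p = 3.88e-05). With LPS 2 fell at T4 and 1 rose at T24, where 0.97% and 0.637% of all genes did.

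AIF1, the calcium-binding protein IBA1, differed only with PMA-Ionomycin at T24 in the comparisons with mock cultures. Its level was 5.29, 5.58, 5.51 and 4.50 in mock cultures at T4 and 4.82, 5.66, 5.66 and 4.94 at T24, overlapping. With PMA-Ionomycin at T24 it was 3.04, 3.46, 3.02 and 2.58, below every other culture of the study. The log2 FC was -2.24 (SE 0.30, adjusted p = 2.19e-06 by limma), or 4.74-fold lower. LPS cultures at T24 had 3.71, 4.75, 4.36 and 4.31, just below the mock cultures with no overlap, at -0.99 (SE 0.30, adjusted p = 0.137). That difference passed with rabbit as a block (adjusted p = 0.00605) and without rabbit 5 (adjusted p = 0.0202). At T4 LPS gave -0.56 (adjusted p = 0.436) and PMA-Ionomycin -0.57 (adjusted p = 0.226, and 0.0364 with rabbit as a block).

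MNDA, a nuclear protein of the PYHIN family, did not pass the test in any comparison with the median scaling and no block. The group means ran from 3.87 in mock cultures at T24 to 4.41 in mock cultures at T4, and all groups overlapped. The 24 levels lay between 3.33 and 4.78. Within rabbits it was lower at T24 than at T4 in mock cultures by 0.24 to 0.73 in 4 of 4 rabbits, a difference of -0.54 (adjusted p = 0.159) that passed with rabbit as a block (adjusted p = 0.00951). With PMA-Ionomycin at T4 it was lower in 4 of 4 rabbits, at -0.49 (adjusted p = 0.156, and 0.0113 with rabbit as a block). With quantile normalization, with and without normexp, MNDA passed as lower with PMA-Ionomycin than in mock at T4 (-0.67 and -0.69), than with LPS at T4 (-0.61 for both) and than with LPS at T24 (-0.66 and -0.69, against -0.16 with the median scaling), with adjusted p from 0.0177 to 0.0426.

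VCAN, the proteoglycan versican, fell with PMA-Ionomycin at T24 and was higher with it than with LPS at T4. Its level at T4 was -0.02, 1.02, 1.26 and 0.29 in mock cultures, 0.02, 0.06, -0.08 and 0.14 with LPS and 0.71, 1.24, 1.91 and 1.38 with PMA-Ionomycin. PMA-Ionomycin lay above LPS without overlap and above mock in 4 of 4 rabbits. Against mock it was 0.67 higher (SE 0.33, adjusted p = 0.165 by limma) and against LPS 1.28 higher (SE 0.33, adjusted p = 0.00424), where 17.7% of all genes were higher. Of the 10 members, 2 were higher with PMA-Ionomycin than with LPS at T4 (VCAN and CD68) and 2 were lower (FPR1 and CYBB), where 9.04% of all genes were lower.

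At T24, VCAN was 0.50, 0.97, -0.02 and 0.97 in mock cultures and 0.56, 0.95, 1.14 and -0.68 with LPS. With PMA-Ionomycin it was -0.84, -0.75, -0.83 and -1.002, and none of its 6 probes was well above background on any of these 4 arrays. It was at least 2.75-fold lower than mock (log2 FC -1.46, adjusted p = 0.000895) and at least 2.55-fold lower than LPS (adjusted p = 0.00173). The bound sets the bright group's mean against the dim group's mean, where each array of the dim group counts with the gene's own signal or that of the dimmest probe still well above background, whichever was brighter. The effects at T24 and T4 differed by -2.14 (SE 0.46, adjusted p = 0.00117). With the background-subtracted signal the PMA-Ionomycin difference at T24 was larger, at -3.90, and so were the difference from LPS at T4, at 1.91, and that between times, at -4.78. LPS at T24 gave -0.11 (adjusted p = 0.985), with rabbit 4 at 1.16 and rabbit 5 at -1.65. The probe over more than 1 exon and the 5 overlapping probes gave the same direction with PMA-Ionomycin, between 0.56 and 0.75 at T4 and between -1.69 and -1.33 at T24.

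**Figure D4:**
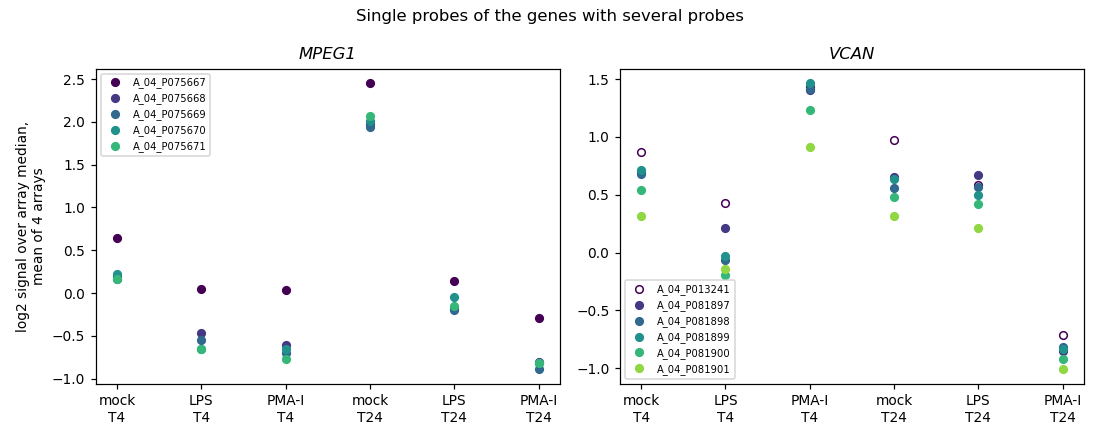
Mean level over 4 arrays (vertical axes, log2 signal over the array median) of each single probe of MPEG1 (5 probes) and VCAN (6 probes) in the 6 groups; the open circle is the VCAN probe that spans more than 1 exon. The probes of a gene keep close to each other: VCAN lies between 0.91 and 1.47 with PMA-Ionomycin at T4 and between -1.01 and -0.71 at T24.

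Of 11 hyaluronan and matrix partners of VCAN listed, 7 were measured. PMA-Ionomycin raised 2 of them at T4, CD44, the hyaluronan receptor, by 0.86 (adjusted p = 0.0461) and HAS2, a hyaluronan synthase, by 1.04 (adjusted p = 0.000218). Over all genes, 13.5% rose in this comparison. TNFAIP6, a hyaluronan-binding protein, had the highest value, 1.15, without passing (adjusted p = 0.439). At T24 no gene of the list passed the threshold with PMA-Ionomycin by limma, and 1 had an unadjusted p under 0.05. In mock cultures TNFAIP6 was lower at T24 than at T4, with a log2 FC of -4.69 (adjusted p = 0.000385).

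The dependence of the PMA-Ionomycin effect on time was tested for all members. Of the 10, 6 had a lower effect at T24 than at T4 (CYBB, CD68, TYROBP, VCAN, MPEG1 and AIF1), where 8.15% of all genes had one. Their log2 differences ran from -2.69 to -1.68. SPI1 and FPR1, which had already fallen at T4, had -0.46 (adjusted p = 0.387) and -1.13 (adjusted p = 0.521). The FPR1 difference was 2.54 in rabbit 5 and -2.93, -2.68 and -1.45 in rabbits 1, 2 and 4, and without rabbit 5 it was -2.35 and passed (adjusted p = 0.0309). For LPS, FPR1 had the largest difference between times, 3.54 (SE 0.96, adjusted p = 0.0557 by limma), and it passed with quantile normalization (adjusted p = 0.0482), without dim probes (0.0392), without rabbit 1 (0.0491) and with rabbit as a block (adjusted p = 0.0166), as under the block did TYROBP at 0.86 (adjusted p = 0.0336). For PMA-Ionomycin, MNDA had a difference of 0.59 (adjusted p = 0.248, and 0.031 with rabbit as a block). Without rabbit 4, 3 of the 6 PMA-Ionomycin differences passed, and those of CD68 (-2.29), MPEG1 (-1.67) and AIF1 (-1.51) did not (adjusted p = 0.0633, 0.0543 and 0.0649). That of MPEG1 also lost the call with the background-subtracted signal (-2.46, adjusted p = 0.114) and on 1 of its 5 probes (adjusted p = 0.0579).

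A wider list of 40 monocyte and macrophage genes, of which 21 were measured, also held many genes that fell with PMA-Ionomycin. At T24, 14 fell and 3 rose (11.5% of all genes fell and 22.2% rose), with a median log2 FC of -1.24. At T4 8 fell and none rose, where 9.35% of all genes fell. S100A8, a calcium-binding protein shared by monocytes and neutrophils, had the lowest value at T24, -7.14 (adjusted p = 1.57e-07), and MSR1, a scavenger receptor of macrophages, the highest, 1.24 (adjusted p = 0.0177). CD14, the co-receptor for LPS, fell by 3.01 at T4 and 3.27 at T24 (adjusted p = 3.30e-07 and 3.19e-08). The study itself lists CD14 as not differentially expressed with PMA-Ionomycin at either time, on the array and by quantitative PCR. The reason for this difference was not tested. CSF1R, the receptor for the growth factor of macrophages, fell by 1.45 and 3.29 (adjusted p = 0.0035 and 7.49e-08). LPS lowered 2 at T4, CD14 by 1.55 (adjusted p = 0.0373) and CSF1R by 1.44 (adjusted p = 0.0492). At T24 it lowered 1, the beta-glucan receptor CLEC7A at -2.65 (adjusted p = 1.46e-05), and raised 4 (0.637% of all genes rose), with a median of 0.09 against -0.22 for the 10 members, IL1B, a cytokine of activated monocytes, having the highest value, 4.16 (adjusted p = 0.00427). In mock cultures 7 rose and 2 fell over time, CSF1R rising by 2.92 (adjusted p = 3.04e-06) and IL1B falling by 3.80 (adjusted p = 0.00123).

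Some markers of other cell types that PBMC cultures hold also passed the test. Over all genes, 11.5% fell and 22.2% rose with PMA-Ionomycin at T24. With PMA-Ionomycin at T24, 4 of 8 B cell markers fell and none rose (12 listed), and their mean level on single arrays was 3.13 to 4.62 in mock cultures and 2.24 to 2.62 with PMA-Ionomycin. Of 12 T cell markers measured (15 listed), 2 fell, near the share of all genes, and 1 rose, below that share. Their mean levels were 0.12 to 0.41 in mock and 0.14 to 0.30 with PMA-Ionomycin. BCL11B was not well above background in either group nor CD4 with PMA-Ionomycin. Of 9 neutrophil markers (13 listed), 5 fell, with mean levels of 2.86 to 3.93 in mock and 1.14 to 1.59 with PMA-Ionomycin, where LTF, CAMP and LCN2 were not well above background. S100A8 stands both in this list and in the wider monocyte list. Of 8 dendritic cell markers (14 listed), 3 fell, with mean levels of 0.87 to 1.18 and 0.57 to 0.69. XCR1, CD1A, CD1E and LAMP3 were not well above background with PMA-Ionomycin, nor CD1E in mock. Of 7 platelet markers (10 listed), 2 rose, a share near the 22.2% of all genes.

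Most platelet markers fell with PMA-Ionomycin at T4 and with time. PMA-Ionomycin lowered 6 of 7 at T4, with a median of -2.44, and mean levels of 1.96 to 3.02 in mock against 0.13 to 1.29. In mock cultures 6 of the 7 were lower at T24 than at T4, with a median of -2.83, where 5.14% of all genes were lower. At T4 PMA-Ionomycin also lowered 4 and raised 1 of the B cell markers and lowered 2 of the neutrophil markers. Over all genes, 9.35% fell and 13.5% rose in this comparison. With LPS none of the B cell, T cell, platelet and dendritic cell markers measured passed the threshold at either time by limma. At an unadjusted p under 0.05 there were 3 T cell markers at T4 and 2 at T24, 1 dendritic cell marker at T4 and 2 at T24, and 0 B cell or platelet markers. Of the neutrophil markers 2 rose and 2 fell at T24. None of 9 natural killer cell markers listed was found by name. The part of other cell types in the members' changes was not tested.

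**Figure D5:**
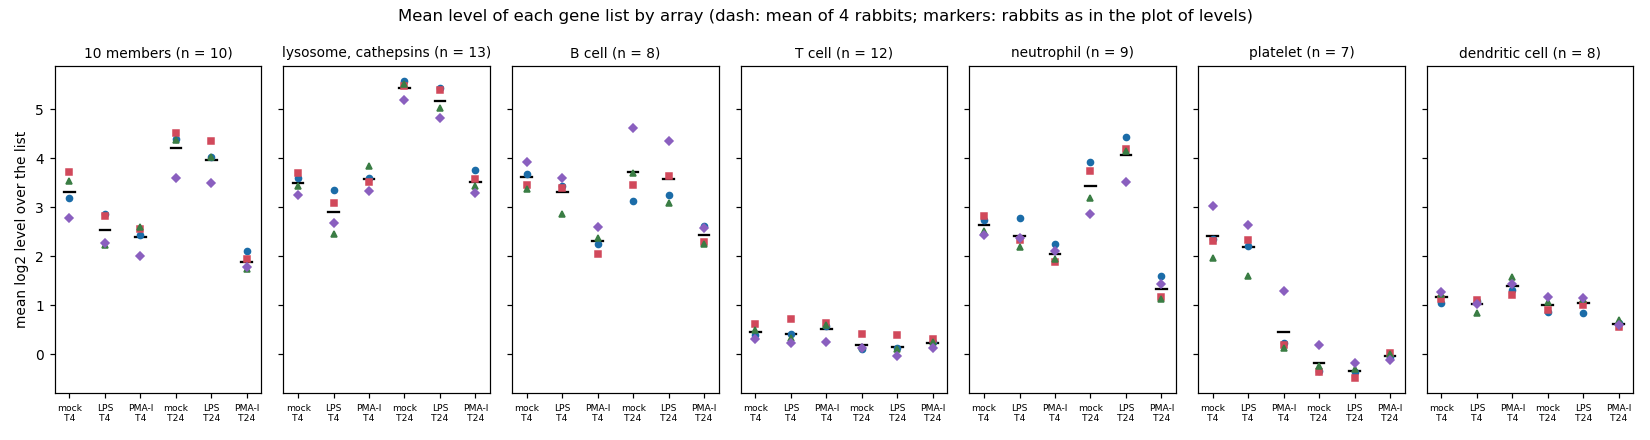
Mean level over each gene list (vertical axis, log2 signal over the array median) on each array in the 6 groups, for the 10 members, the lysosomal genes and markers of 5 other cell types, with the number of measured genes in brackets. With PMA-Ionomycin at T24 the members' mean lies between 1.73 and 2.10 against 3.59 to 4.51 in mock cultures. The lysosomal, neutrophil, B cell and dendritic cell lists are also lower. Of these, 3 of 9 neutrophil and 4 of 8 dendritic cell genes are well above background on no PMA-Ionomycin array at T24. The T cell list overlaps mock at low levels, with 6 of its 12 genes well above background on all 4 mock arrays at T24.

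The members varied together to different degrees. Over the 24 arrays, which share rabbits and treatments, TYROBP followed the mean of the standardised members most closely (Pearson r = 0.921), then SPI1 (0.892) and CYBB (0.885), and MNDA least (0.221). Each of these genes is itself part of that mean, which raises its r, so these values cannot be set beside those of genes outside the set. The closest pair was CYBB with TYROBP (r = 0.923), and SPI1 was also closest to TYROBP (0.914). FPR1 was closest to SPI1 (0.767), CD68 to TYROBP (0.842), MPEG1 to CYBB (0.774), ITGAM to CD68 (0.711), AIF1 to MPEG1 (0.643), VCAN to AIF1 (0.59) and MNDA to FPR1 (0.359). Of 45 pairs, 17 had an r above 0.5 and 6 had one below 0.

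Among 9462 other genes with a symbol, the 10 whose level over the 24 arrays was most like that mean included AOAH (r = 0.962), CTSH (0.939), SYNJ1 (0.934), PTAFR (0.927), WDFY3 (0.919), SERPINB1 (0.919), PLCB2 (0.919), IFNGR2 (0.918) and ISOC1 (0.918). AOAH encodes an enzyme that removes acyl chains from LPS. Its mean level was 2.63 in mock, 1.93 in LPS and 1.49 in PMA-Ionomycin cultures at T4, and 4.91, 4.08 and 1.06 at T24. CTSH is cathepsin H, at 9.45 in mock and 6.34 in PMA-Ionomycin cultures at T24.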

How the data were processed

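Per the labels, Cy3-labelled cRNA of 24 PBMC cultures was put on a custom Agilent array, from which the authors extracted spot intensity values with Feature Extraction 10.7.3.1. The deposited scanner files hold these intensities, not normalized, with genome positions on oryCun2. The authors also deposited a log2 table, which equals the log2 median signal centred on the mean over the array's spots to within 5e-09. Here the median signal was log2-transformed and centred on the array median, without control and outlier spots, and spots and then probes of a gene were averaged. Of 42089 probes, 11029 were named by RefSeq accession, 8500 by gene number, 460 (AIF1, SPI1, TYROBP and MNDA among them) by the study's list of immunity genes, 75 by the file's gene name, and 22025 kept an identifier. The 10 members and 15 gene lists were chosen with earlier results of these data known. limma 3.58.1 (R 4.3.3) fitted 6 group means to all 24 arrays, with Benjamini-Hochberg adjustment, and was tested on simulated data. Named from each list were its lowest and highest value and the members' direct partners, and some genes that this rule or the likeness ranking picks are not reported here. The rabbit numbers in the sample titles mark the same animal in every group. Deviations from group means had a median correlation of 0.228 within a rabbit (60 pairs of arrays) and -0.0740 between rabbits (180 pairs), and the fit with rabbit as a block is given where it changed a call. The number of arrays limits the precision. Alternatives covered the scaling, the signal column, background correction, dim probes, outlier spots, the arrays fitted, rabbit and slide (3 slides) as blocks, moderation with a trend, single probes and left-out rabbits or arrays.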

Additional observations from a re-analysis of the deposited data

Results flagged for a closer look

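In 3 of the 60 sets of 4 levels (10 genes in 6 groups), 1 rabbit stood apart by Dixon's test, and chance marks about 1 in 20 such sets. In LPS cultures at T4, CYBB of rabbit 1 lay below the others (0.94 against 1.43 to 1.48, a gap of 0.904 of the range) and AIF1 of rabbit 5 lay below the others (3.77 against 4.86 to 5.02, 0.87 of the range). In PMA-Ionomycin cultures at T4, SPI1 of rabbit 4 lay above the others (2.40 against 1.80 to 1.86, 0.912 of the range).

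The effect of a stimulation differed between T24 and T4 for 7 results, each tested as an interaction by limma. For LPS this was SPI1, at 1.33. For PMA-Ionomycin the differences were -2.69 for CYBB, -2.46 for CD68, -2.30 for TYROBP, -2.14 for VCAN, -1.995 for MPEG1 and -1.68 for AIF1, in the same direction in 4 of 4 rabbits for each.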

How the results depend on the processing

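Of 37 member changes past the threshold, none turned sign under any of 16 alternatives, and at most 554 of their 592 alternative values kept the call. The 8 falls with PMA-Ionomycin at T24 and the 7 against LPS at T24 kept their calls throughout, and the latter number was 8 in 3 alternatives. Results with LPS were the least stable. The number of members called with LPS at T4 (2) was 0 with the processed signal (4 at unadjusted p under 0.05), 1 with normexp and quantile normalization, 0 when only the arrays compared were fitted (6 unadjusted), and 0 to 2 when a rabbit or array was left out, with 0 without rabbit 2, without rabbit 4 and without the LPS T4 array of rabbit 4, the last chosen after seeing the data. With the replicate block CD68 joined SPI1 and TYROBP at T4 (adjusted p = 0.0201 by limma). At T24 (1) the number called with LPS was 0 on the arrays compared alone (4 unadjusted), 4 with the replicate block, and 0 to 3 with a rabbit left out (0 without rabbit 4). For the LPS and time difference (1) it was 2 with quantile normalization, 0 with the processed signal (2 unadjusted), 2 without dim probes, 0 on the arrays compared alone (4 unadjusted), 3 with the replicate block and 0 to 2 with a rabbit left out (0 without rabbit 2, 4 or 5). The PMA-Ionomycin and time difference (6) gave 3 to 7, with 3 without rabbit 4. The block also gave 6 for PMA-Ionomycin at T4, and the cause of these changes was not tested.

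Signs turned in 46 values of members not past the threshold, and in 4 of single probes of VCAN, none of them past it after the turn. In the order quantile, processed signal, normexp and deposited table, ITGAM had -0.013, -0.163, -0.0132 and -0.0685 with PMA-Ionomycin at T24, -0.0463, -0.20, -0.0365 and -0.0301 against LPS at T4, and -0.0236, -0.0475, -0.0198 and -0.0151 in the time difference. MNDA had -0.36, -0.20, -0.36 and -0.0455 with PMA-Ionomycin at T24. With PMA-Ionomycin at T4, ITGAM had -0.12 (processed) and -0.0534 (deposited), and CD68 -0.10 (quantile) and -0.0715 (normexp). With LPS at T4, ITGAM had 0.0569, 0.0845 and 0.0431 under the first 3 and MNDA 0.0231 (processed). AIF1 in mock cultures over time had -0.0353, -0.079 and -0.0351. Single probes of VCAN gave 0.014 and 0.00692 with LPS at T24, and 0.11 and 0.00491 over time. With 1 rabbit or array left out, the values ran as follows. ITGAM had -0.16 to 0.0787 with LPS at T4, -0.0347 to 0.0632 with PMA-Ionomycin at T4, -0.0224 to 0.18 at T24, -0.0486 to 0.13 against LPS at T4 and -0.0856 to 0.21 in the time difference. VCAN had -0.54 to 0.40 with LPS at T24, -0.27 to 0.38 over time and -0.18 to 1.15 in the LPS and time difference. CD68 had -0.11 to 0.21 with PMA-Ionomycin at T4, and AIF1 -0.079 to 0.22 over time. Against LPS at T4, AIF1 had -0.097 to 0.10, MPEG1 -0.15 to 0.0174 and SPI1 -0.52 to 0.00993. With the processed signal the median of all genes for PMA-Ionomycin against LPS at T4 was -0.413, from -0.04 with the median scaling. Low signals near background limit MPEG1, VCAN and ITGAM, CYBB with PMA-Ionomycin, and FPR1 with PMA-Ionomycin at T24.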
